A study of Mus musculus with 4 samples.

Results

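The CC and CXC chemokines, the chemokine CX3CL1 and the receptors of these proteins were followed in cultured mouse cardiac fibroblasts that overexpressed the nuclear receptor gene Nr4a3. The members are the genes of the deposited count table whose symbols begin with Ccl, Cxcl, Cx3cl, Ccr, Cxcr, Cx3cr or Ackr followed by a number, 59 of 55359 genes listed. Of these, 38 encode ligands, 17 encode G protein-coupled receptors and 4 encode atypical receptors. The cells were primary cardiac fibroblasts from the hearts of wild-type mice with the age label P1-P3, and 2 libraries carried the treatment OE-Nr4a3 (OENr4a3) and 2 the treatment OE-Ctrl (OECtrl). The design text places the cells at day 7 of reprogramming towards induced cardiomyocytes, whereas the sample titles give day 10, so the time point is uncertain. The labels name no vector, no identity of the control construct and no reprogramming factors, and they do not say whether replicates came from separate cultures. Any p-value here is set against the variation among these 4 libraries alone, and that variation may be technical.

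Chemokines are small secreted proteins that guide the movement of cells along gradients. CC chemokines mainly attract monocytes, macrophages and lymphocytes, whereas CXC chemokines that bind CXCR2 attract neutrophils. Chemokine receptors signal through inhibitory G proteins, and atypical receptors take up or transport chemokines without that signal. In the heart, fibroblasts are a known source of CCL2, CCL7 and CXCL12, and most of the receptors are carried by leukocytes.

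The libraries held 18441428 and 18287644 counts in OENr4a3 and 14275501 and 16461333 in OECtrl. Nr4a3 had 3184 and 3196 reads in OENr4a3, against 36 and 31 reads in OECtrl (log2 fold change 6.35, adjusted p = 1.13e-07 in edgeR's quasi-likelihood test), and the introduced copy cannot be separated from the gene of the cell. The 8 fibroblast markers summed to 12030 and 12050 CPM (reads scaled to library size) in OENr4a3 and to 11630 and 11090 CPM in OECtrl. They did not move alike, with 2 of 8 higher and 3 lower in OENr4a3 in edgeR's test. The 10 macrophage markers, none of them at 0, summed to 135.3 and 129.8 CPM in OENr4a3 and to 191.1 and 162.2 CPM in OECtrl, and 4 of them (Adgre1, Cd14, C1qa and C1qb) were lower in OENr4a3 in edgeR's test. T cell markers summed to 0.661 and 0.334 CPM in OENr4a3 and to 0.0692 and 0.359 CPM in OECtrl, with Cd3d and Cd3g at 0 reads. Neutrophil markers summed to 0.386 and 0.334 CPM in OENr4a3 and to 1.25 and 0.778 CPM in OECtrl, with Ly6g and Retnlg at 0 reads. B cell markers summed to 0.441 and 0.167 CPM in OENr4a3 and to 0.346 and 0.419 CPM in OECtrl. Endothelial markers summed to 48.4 and 54.97 CPM in OENr4a3 and to 57.85 and 58.3 CPM in OECtrl, with 1 of 7 lower. Mesothelial markers summed to 278.8 and 260.8 CPM in OENr4a3 and to 536.4 and 576.6 CPM in OECtrl, with 4 of 6 lower. Over all genes tested, 12.0% were called higher and 11.0% lower. The marker counts leave in a trend of fold change with exonic length, given below, and its part in them was not tested. In bulk RNA, fewer cells of a type and less RNA per cell cannot be told apart.

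Members moved in both directions. Of the 59 members, at least 1 read was counted for 44, and 23 were abundant enough to be tested (filterByExpr in edgeR). In edgeR's quasi-likelihood test, 3 ligand genes rose in OENr4a3 (Cxcl1, Cxcl14 and Ccl6) and 7 members fell, namely the ligand genes Ccl2, Ccl7, Ccl3, Ccl9 and Ccl17, the receptor gene Cx3cr1 and the atypical receptor gene Ackr4. Among all 15029 genes tested, 12.0% were called higher and 11.0% lower (23.0% in either direction), against 13.0% and 30.4% of the 23 members tested. The 7 lower calls became 3 once the trend of fold change with gene length was taken out (10.2% of all genes lower). Leaving out a library changed the number of calls, higher and lower together, among the members and over all genes alike. Both numbers fell when either OENr4a3 library was left out and rose when either OECtrl library was left out. The groups did not overlap in level for 17 of the 23 (8 higher and 9 lower in OENr4a3), or 73.9%, against 68.2% of all genes tested (34.0% higher and 34.2% lower). The median log2 fold change was 0.01 over the members tested and -0.01 over all genes tested. Of the 23, Cxcl1, which is among the 3 called higher, and Ccl28, which was not called, passed the filter through OENr4a3 libraries alone. Ligand reads together came to 365.6 and 387.1 CPM in OENr4a3 and to 359.4 and 353.7 CPM in OECtrl. Without Cxcl12, the most abundant ligand by reads, they came to 202 and 207.7 CPM in OENr4a3 and to 218.3 and 215 CPM in OECtrl.

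**Figure D1:**
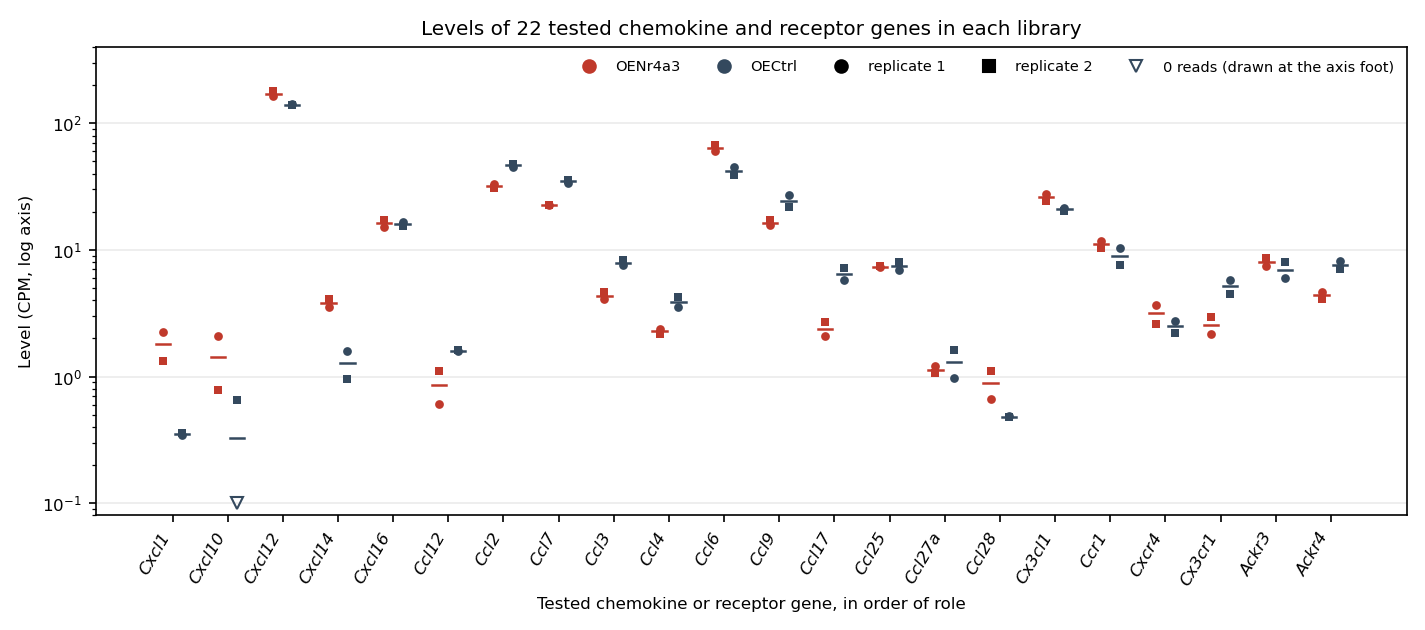
Levels in CPM (log axis) of 22 of the 23 tested chemokine and receptor genes, with OENr4a3 libraries in red on the left and OECtrl libraries in dark blue on the right of each gene, circles for replicate 1, squares for replicate 2, bars for the mean of 2 libraries and an open triangle for a library with 0 reads. The groups stand apart for Cxcl1, Cxcl14, Ccl2, Ccl7, Ccl6 and Ccl17, and they overlap for Cxcl16, Ccl25 and Ackr3.

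**Figure D2:**
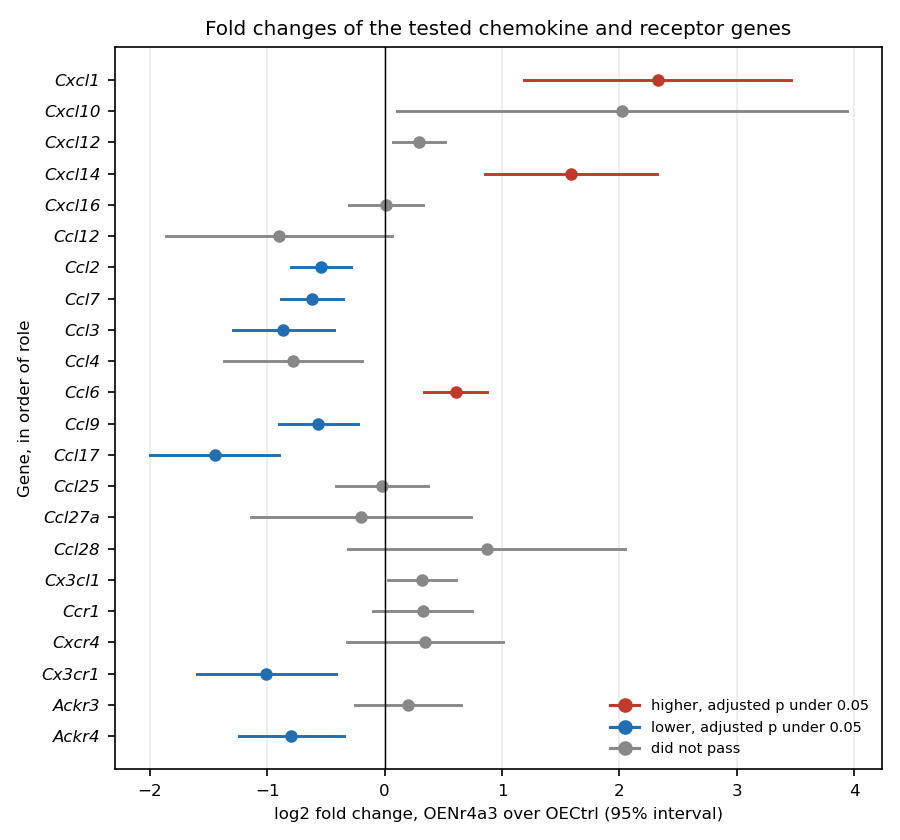
The log2 fold change of OENr4a3 over OECtrl for 22 of the 23 tested genes, with its 95% interval from the edgeR fit, in red or blue where the adjusted p was under 0.05. The point estimates run from -1.45 (Ccl17) to 2.33 (Cxcl1).

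Cxcl1, a ligand of CXCR2 that attracts neutrophils, was scarce in OECtrl and higher in OENr4a3. It had 41 and 24 reads in OENr4a3, against 5 and 6 reads in OECtrl. The levels were 1.80 ± 0.653 CPM in OENr4a3 and 0.353 ± 0.00916 CPM in OECtrl (SD, n = 2 each), 5.01-fold higher in OENr4a3 (edgeR log2 fold change of 2.33 ± 0.506 SE with an adjusted p of 0.0137). Cxcl1 entered this test only through the OENr4a3 libraries, the group where it was higher, since neither OECtrl library reached the filter on low counts. The groups did not overlap, but the OENr4a3 libraries differed from each other more than the OECtrl libraries did, and with OENr4a3 replicate 1 left out Cxcl1 no longer passed (1.91, adjusted p = 0.189). Of the other CXCR2 ligands, Cxcl5 had 12 and 10 reads in OENr4a3 and 0 and 0 reads in OECtrl. Set against a floor of 3 reads over both OECtrl libraries, Cxcl5 was 6.33-fold higher in OENr4a3. That ratio allows for counting error in the OECtrl reads alone and not in the OENr4a3 reads. Cxcl5 was too scarce for the reported test. When every gene with a read was tested in edgeR it passed (adjusted p = 0.0436), and 4 members were then called higher and 5 lower, in a fit that called 6.85% of all genes (4.09% higher and 2.76% lower). Cxcl2 held 5 and 1 reads in OENr4a3 and 1 and 4 in OECtrl, and Cxcl3 held 1 and 0 reads in OENr4a3 and 0 and 0 in OECtrl. The receptor gene Cxcr2 had 0 and 1 reads in OENr4a3 and 2 and 0 in OECtrl, and Cxcr1 had none in any library.

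Cxcl5, Cxcl3, Cxcl15, Cxcl1 and Cxcl2 lie in this order within 146.6 kb of chromosome 5 (90759360 to 90905938, GRCm38), and of these neighbours Cxcl1 and Cxcl5 were the 2 with more than 11 reads in all. The promoter of Cxcl1, taken from RefSeq (chr5:90890995-90891294, plus strand, GRCm38.p6, 250 bases before to 50 after the start site), is shown because it holds 2 matches to a kappaB element, the binding site of NF-kappaB. The motif searched on both strands was GGG followed by 2 bases of any kind and TTTCC, and capitals mark the matches, which do not overlap.
Cxcl1: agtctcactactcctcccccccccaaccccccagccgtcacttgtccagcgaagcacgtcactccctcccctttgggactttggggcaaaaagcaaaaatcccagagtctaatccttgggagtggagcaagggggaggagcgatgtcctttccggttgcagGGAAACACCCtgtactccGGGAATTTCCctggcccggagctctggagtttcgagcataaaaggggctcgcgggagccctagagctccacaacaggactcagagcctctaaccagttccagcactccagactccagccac
Such a match was found in 1.63% of 32851 promoter windows of this length, and in 6 of 51 windows of the members with a window (44 of 59 genes). Cxcl2, with 6 reads in OENr4a3 and 5 in OECtrl, also held 2 matches, and Cxcl3, Ccl20, Ccr3 and Ccl9 held 1 each. A match describes letters and does not show binding.

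The CXCR3 ligands, which interferons induce and which attract T cells, were at the edge of detection. Cxcl10 had 38 and 14 reads in OENr4a3, against 0 and 11 reads in OECtrl. The lower OENr4a3 library (0.779 CPM) stood only just above the higher OECtrl library (0.658 CPM), and the difference did not pass (log2 fold change 2.02, 95% interval 0.103 to 3.94, adjusted p = 0.112 in edgeR). Leaving out 1 library moved that value between 1.12 (without OECtrl replicate 1) and 7.61 (without OECtrl replicate 2, where the lone OECtrl library has 0 reads). Without OENr4a3 replicate 1 or 2 the log2 fold change of Cxcl10 was 1.17 or 2.58. Cxcl9 had 0 and 0 reads in OENr4a3 and 0 and 3 in OECtrl. Cxcl11, which GENCODE M21 lists as a polymorphic pseudogene, had none in any library. Their receptor gene Cxcr3 held 1 and 0 reads in OENr4a3 and 1 and 2 in OECtrl.

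Cxcl12, the homeostatic ligand of CXCR4 and of the scavenger ACKR3, was the most abundant chemokine of these cells by reads. It held 44.7% and 46.3% of all ligand reads in OENr4a3 and 39.3% and 39.2% in OECtrl. Its levels were 163.6 and 179.4 CPM in OENr4a3, against 141.1 and 138.7 CPM in OECtrl. The groups did not overlap, yet the difference did not pass the test (log2 fold change 0.29, 95% interval 0.0694 to 0.518, adjusted p = 0.0602 in edgeR). Without OECtrl replicate 1 or 2 the log2 fold change stayed close to this, at 0.31 or 0.28. Cxcl12 has 8176 exonic bases, and across the transcriptome the fold change increased with length (Spearman's rho of fold change with exonic length 0.42 across 15029 genes, which are not independent replicates). Once that trend was taken out, the log2 fold change of Cxcl12 was 0.09 (adjusted p = 0.506), and 3 members were called higher (10.1% of all genes) and 3 lower (10.2%; 20.3% in either direction). Its receptor gene Cxcr4 had 67 and 47 reads in OENr4a3 and 40 and 37 in OECtrl (log2 fold change 0.35, 95% interval -0.32 to 1.01, adjusted p = 0.417). Ackr3 had 135 and 156 reads in OENr4a3 and 86 and 134 in OECtrl, with overlapping levels (0.20, 95% interval -0.251 to 0.65, adjusted p = 0.491).

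Cxcl14, a chemokine whose receptor is not settled, rose in OENr4a3. It had 64 and 73 reads in OENr4a3, against 23 and 16 reads in OECtrl. Its mean was 3.79 ± 0.379 CPM in OENr4a3 and 1.27 ± 0.449 CPM in OECtrl (SD, n = 2 each), 3.0-fold higher (log2 fold change 1.59 ± 0.327 SE, adjusted p = 0.0116 in edgeR). The groups did not overlap, and Cxcl14 was called higher in each of the 12 other settings tried. Cxcl16, a membrane-bound ligand that is shed and binds CXCR6, stood at 16.2 ± 1.29 CPM in OENr4a3 and 16.0 ± 0.830 CPM in OECtrl (log2 fold change 0.01, 95% interval -0.301 to 0.329, adjusted p = 0.952). Its receptor gene Cxcr6 had 1 and 0 reads in OENr4a3, against 5 and 4 in OECtrl, a 10.4-fold lower summed count with a 95% counting interval of 1.45 to 457.3. Tested among all genes with a read, Cxcr6 did not pass (adjusted p = 0.259 in edgeR). Cxcr6 lies within the span of Fyco1 on the other strand, and Fyco1 moved the other way (log2 fold change 0.76, adjusted p = 0.0174). Cxcl13, the ligand of CXCR5 that draws B cells to follicles, had 3 and 3 reads in OENr4a3 and 1 and 3 in OECtrl. Cxcl17 had 0 and 2 reads in OENr4a3 and 0 and 1 in OECtrl, and the mouse gene Cxcl15 had none.

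The abundant CCR2 ligands, which recruit monocytes, fell together. Ccl2 had 33.3 and 30.6 CPM in OENr4a3, against 45.0 and 48.0 CPM in OECtrl, a 1.46-fold lower level (log2 fold change -0.54 ± 0.115 SE, adjusted p = 0.0125 in edgeR). Its neighbour Ccl7 had 22.4 and 22.8 CPM in OENr4a3, against 33.8 and 35.7 CPM in OECtrl, a 1.54-fold lower level (-0.62 ± 0.118 SE, adjusted p = 0.00879). For both genes all OENr4a3 libraries lay below all OECtrl libraries. The third detected CCR2 ligand, Ccl12, had 11 and 20 reads in OENr4a3 and 23 and 27 in OECtrl and did not pass (-0.90, 95% interval -1.86 to 0.0659, adjusted p = 0.152). Ccl8 had a single read in 1 OECtrl library. The receptor gene Ccr2 likewise had 1 read, in OECtrl. The falls of Ccl2 and Ccl7 depended on the setting. Ccl2 has 1138 exonic bases and Ccl7 has 801, against a median of 4126 over all genes tested. With the length trend removed, their log2 fold changes were -0.21 (adjusted p = 0.175) and -0.24 (adjusted p = 0.142). Both calls were also lost without OENr4a3 replicate 1 (adjusted p = 0.103 and 0.114) or replicate 2 (0.228 and 0.0931). Of the macrophage markers 4 of 10 were lower, and of the mesothelial markers 4 of 6, against 11.0% of all genes tested. The mesothelial markers Wt1 (0.17, adjusted p = 0.344 in edgeR) and Krt19 (-0.38, adjusted p = 0.538) were not called. Fibroblast markers moved both ways (2 of 8 higher, 3 lower). The length trend was left in for these markers. The part of these markers' cells in the falls was not tested.

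Ccl3, Ccl4, Ccl5, Ccl6 and Ccl9, which macrophages are known to make and which act through receptors that include CCR1, did not all move alike, as Ccl6 rose while Ccl9 and Ccl3 fell. Ccl6 had 1089 and 1207 reads in OENr4a3, against 647 and 651 reads in OECtrl. That is 63.6 ± 5.07 CPM in OENr4a3 and 41.9 ± 4.12 CPM in OECtrl (SD, n = 2 each), 1.52-fold higher (log2 fold change 0.60 ± 0.12 SE, adjusted p = 0.01 in edgeR). Both OENr4a3 values exceeded both OECtrl values, and removing the length trend raised the log2 fold change to 0.86 (adjusted p = 0.0011). Leaving out OENr4a3 replicate 2 ended the call (adjusted p = 0.136).

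Ccl9 had 284 and 310 reads in OENr4a3, against 389 and 364 reads in OECtrl. Its level was 16.4 ± 1.13 CPM in OENr4a3 and 24.4 ± 3.64 CPM in OECtrl, 1.48-fold lower (log2 fold change -0.56 ± 0.148 SE, adjusted p = 0.0266). Ccl3, also known as MIP-1-alpha, had 74 and 83 reads in OENr4a3, against 109 and 138 reads in OECtrl, 1.82-fold lower (-0.86 ± 0.192 SE, adjusted p = 0.0149). No OENr4a3 library reached an OECtrl level for either gene. Ccl4, or MIP-1-beta, had 43 and 39 reads in OENr4a3 and 51 and 71 in OECtrl and did not pass (-0.78, 95% interval -1.37 to -0.19, adjusted p = 0.0584). Without OECtrl replicate 1 or 2 the log2 fold change of Ccl4 was -0.90 or -0.64. Ccl5 was scarce, with 3 and 8 reads in OENr4a3 and 6 and 5 in OECtrl. Neither Ccl3 (-0.48, adjusted p = 0.101) nor Ccl9 (-0.45, adjusted p = 0.0509) passed after the length trend was taken out. Both were also lost without OENr4a3 replicate 1 (adjusted p = 0.102 and 0.232), and Ccl9 was lost without OENr4a3 replicate 2 (0.102) and when genes of low count were kept in the fit (0.0638). Of the 10 macrophage markers summed above, 4 were lower in OENr4a3 and none higher, against 11.0% of all genes lower. That was the direction of Ccl3 and Ccl9 and not of Ccl6. Among the 4, C1qa, C1qb and Cd14 have 1040, 1088 and 1732 exonic bases and Adgre1 has 3238. The median over all genes tested was 4126. The length trend was left in for these markers. Their part in these results was not tested.

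Ccl5, Ccl9, Ccl6, Ccl3 and Ccl4 lie in this order within 138.9 kb of chromosome 11 (83525778 to 83664683, GRCm38). Ccl9 and Ccl6 are next to each other on the minus strand. Ccl6 shares its span with E230016K23Rik on the other strand, which had 10 and 21 reads in OENr4a3 and 17 and 11 in OECtrl. Whether reads were assigned by strand is not stated, so the reads of genes on opposite strands of the same span may be mixed. The promoters of these neighbours with opposite changes are shown side by side, from RefSeq on GRCm38.p6 and the minus strand, for Ccl6 at chr11:83593038-83593337 and for Ccl9 at chr11:83578587-83578886. Capitals mark in Ccl6 a match on the other strand to the NBRE, the element that NR4A receptors bind (AAAGGTCA, both strands searched), and in Ccl9 a match on the other strand to the kappaB motif given above.
Ccl6: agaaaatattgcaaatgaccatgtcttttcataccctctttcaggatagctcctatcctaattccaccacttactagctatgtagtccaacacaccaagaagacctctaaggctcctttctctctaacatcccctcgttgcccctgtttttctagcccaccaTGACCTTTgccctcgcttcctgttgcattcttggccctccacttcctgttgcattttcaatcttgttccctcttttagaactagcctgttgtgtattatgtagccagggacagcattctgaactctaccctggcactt
Ccl9: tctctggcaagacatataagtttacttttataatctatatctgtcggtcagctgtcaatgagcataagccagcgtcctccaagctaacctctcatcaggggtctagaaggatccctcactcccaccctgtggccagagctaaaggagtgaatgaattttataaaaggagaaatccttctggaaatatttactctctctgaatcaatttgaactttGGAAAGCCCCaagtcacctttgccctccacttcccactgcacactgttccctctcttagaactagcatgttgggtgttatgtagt
An NBRE was found in 1.51% of 32851 windows and in 1 of 51 windows of the members, that of Ccl6. The third motif searched was the interferon-stimulated response element (GAAA, 2 bases of any kind, GAAA). It was found in 3.44% of all windows and in 3 of 51 member windows, those of Cxcl10, Cxcl14 and Ccl19. Cxcl5, Ccl2 and Ccl7 were among the members without a window. No use of any of these sites was measured.

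**Figure D3:**
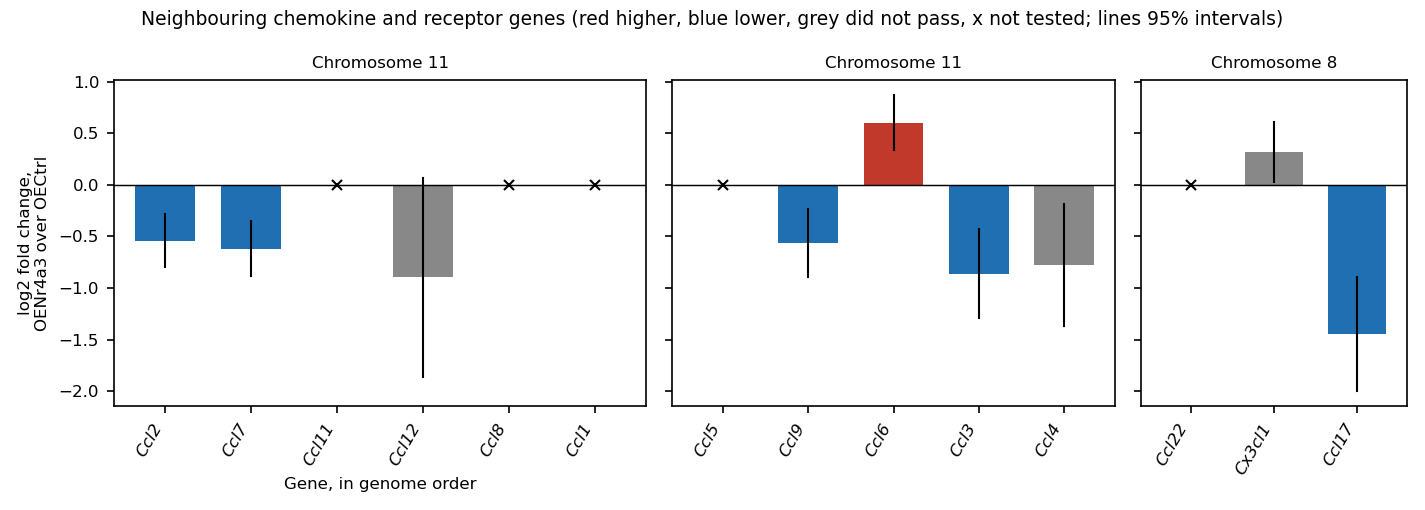
The log2 fold changes (OENr4a3 over OECtrl) of neighbouring members in genome order on chromosomes 11 and 8, with 95% intervals as lines and crosses for genes below the filter. On chromosome 11, Ccl6 (0.60) stands above 0 between Ccl9 (-0.56) and Ccl3 (-0.86), and on chromosome 8 Ccl17 (-1.45) is the one below 0.

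Ccl17, which attracts T cells through CCR4, had the largest fall among the members tested. It had 38 and 48 reads in OENr4a3, against 83 and 121 reads in OECtrl. The level was 2.38 ± 0.408 CPM in OENr4a3 and 6.49 ± 1.06 CPM in OECtrl (SD, n = 2 each), 2.73-fold lower (log2 fold change -1.45 ± 0.245 SE, adjusted p = 0.00536 in edgeR). Both OENr4a3 values lay below both OECtrl values. Ccl17 was called lower in each of the 12 other settings, at log2 fold changes from -1.62 to -1.01, the last with the length trend removed. Ccl22, the other CCR4 ligand, and the receptor gene Ccr4 had no read in any library.

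Cx3cl1, or fractalkine, lies between Ccl22 and Ccl17 within 66.4 kb of chromosome 8 (94745590 to 94812036, GRCm38) and was not called. This membrane-anchored chemokine, which is also shed, had 27.7 and 24.5 CPM in OENr4a3, against 21.6 and 20.3 CPM in OECtrl, without overlap. The difference did not pass (log2 fold change 0.32, 95% interval 0.0282 to 0.612, adjusted p = 0.101 in edgeR). Without OECtrl replicate 1 or 2 the log2 fold change of Cx3cl1 was 0.37 or 0.27. Its receptor gene Cx3cr1, a gene of monocytes and macrophages, had 39 and 53 reads in OENr4a3, against 84 and 75 reads in OECtrl. The level of Cx3cr1 was 2.55 ± 0.566 CPM in OENr4a3 and 5.15 ± 0.938 CPM in OECtrl, 2.01-fold lower (-1.01 ± 0.265 SE, adjusted p = 0.0267). All OENr4a3 values lay below those of OECtrl, and the log2 fold change was -1.02 with the length trend removed (adjusted p = 0.021). Cx3cr1 no longer passed without OENr4a3 replicate 1 (adjusted p = 0.174) or when genes of low count were kept (0.0522). Its annotated span on chromosome 9 also covers several other genes, among them Gorasp1 and Csrnp1 on the same strand, neither of which passed the test. Of the macrophage markers, 4 of 10 were lower as Cx3cr1 was, against 11.0% of all genes tested, with the length trend left in. Their part in the fall of Cx3cr1 was not tested.

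Among the receptors of the ligands above, Ccr1 did not pass. Ccr1, carried by monocytes and macrophages, had 11.8 and 10.4 CPM in OENr4a3, against 10.3 and 7.54 CPM in OECtrl (log2 fold change 0.32, 95% interval -0.0979 to 0.746, adjusted p = 0.231 in edgeR). Its log2 fold change was 0.56 without OECtrl replicate 1 and 0.11 without OECtrl replicate 2. Together the 17 G protein-coupled receptor genes held 344 and 326 reads in OENr4a3 and 302 and 254 in OECtrl. Of these, Ccr1 gave 215 and 187 reads in OENr4a3 and 149 and 126 in OECtrl.

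Ackr4, an atypical receptor that scavenges CCL19, CCL21 and CCL25, fell in OENr4a3. It had 84 and 74 reads in OENr4a3, against 119 and 117 reads in OECtrl. Its level was 4.37 ± 0.361 CPM in OENr4a3 and 7.62 ± 0.874 CPM in OECtrl (SD, n = 2 each), 1.74-fold lower (log2 fold change -0.80 ± 0.199 SE, adjusted p = 0.0224 in edgeR). No overlap was seen between the groups, and with the length trend removed the value was -0.87 (adjusted p = 0.0115). Without OENr4a3 replicate 1 or 2 the call was lost (adjusted p = 0.0584 and 0.148). Ackr4 overlaps Acad11 on the other strand, which did not pass (0.12, adjusted p = 0.435). Of the ligands that ACKR4 takes up, Ccl25 stood at 7.33 ± 0.0909 CPM in OENr4a3 and 7.44 ± 0.733 CPM in OECtrl (-0.02, 95% interval -0.417 to 0.371, adjusted p = 0.937), and Ccl19, Ccl21a, Ccl21b and Ccl21d had no read. A count of 0 over the 4 libraries allows up to 0.0446 CPM, counting error only. Ackr1 had 1 and 3 reads in OENr4a3 and 1 and 4 in OECtrl, and Ackr2 had 1 read in all, in OECtrl.

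The CCR10 axis of epithelial chemokines was thinly covered. Ccl28 had 12 and 20 reads in OENr4a3 and 7 and 8 in OECtrl (log2 fold change 0.87, 95% interval -0.314 to 2.05, adjusted p = 0.251 in edgeR). Ccl27a had 22 and 19 reads in OENr4a3 and 14 and 27 in OECtrl (-0.20, 95% interval -1.14 to 0.738, adjusted p = 0.755). Ccl27a overlaps Il11ra1 on the other strand, which was lower in OENr4a3 (-0.43, adjusted p = 0.0406). The near-identical copy Ccl27b had no read, so the split of reads between the copies is uncertain. The receptor gene Ccr10 had 8 and 6 reads in OENr4a3 and 0 and 0 in OECtrl. Set against a floor of 3 reads over both OECtrl libraries, Ccr10 was 4.03-fold higher, with no allowance for counting error in the OENr4a3 reads. Tested among all genes with a read, Ccr10 did not pass (adjusted p = 0.0931). Ccr10 overlaps Cntnap1 on the other strand, which had 65 and 102 reads in OENr4a3 and 59 and 39 in OECtrl and did not pass (adjusted p = 0.248).

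**Figure D4:**
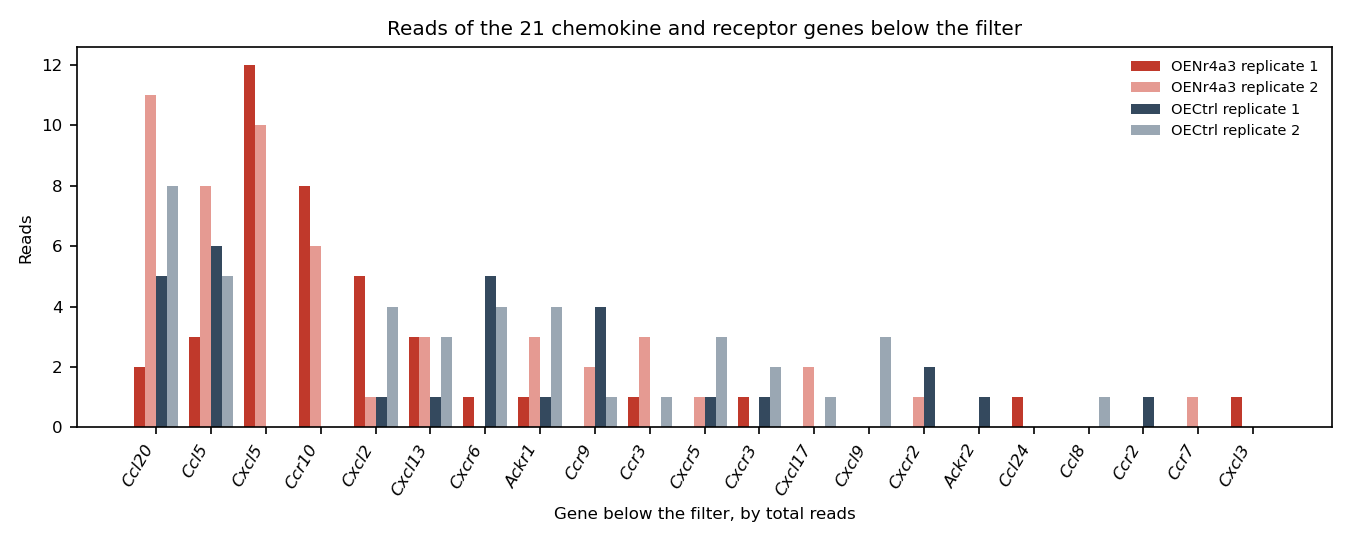
Reads in each library for the 21 members that had a read but lay below the filter on low counts, with OENr4a3 replicates in red shades on the left and OECtrl replicates in blue-grey shades on the right of each gene. Cxcl5 and Ccr10 have reads in both OENr4a3 libraries and none in OECtrl, and Cxcr6 has 1 read in OENr4a3 and 9 in OECtrl.

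The remaining members were at or near 0. Ccl20, the CCR6 ligand, had 2 and 11 reads in OENr4a3 and 5 and 8 in OECtrl. Ccr9 had 0 and 2 reads in OENr4a3 and 4 and 1 in OECtrl, and Ccr3 had 1 and 3 in OENr4a3 and 0 and 1 in OECtrl. Cxcr5 had 0 and 1 reads in OENr4a3 and 1 and 3 in OECtrl. Ccr7 and Ccl24 had 1 read each, both in OENr4a3. No read was found for Ccl1, Ccl11, Ccl26, Ccr6 or Ccr8. With those named above, 15 members had no read in any library.

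Compared per length, as CPM per kilobase of exon, 4 ligand genes stood clear of the other members in both groups. In OENr4a3 the order was Ccl6 at 35.4 ± 2.82, Ccl7 at 28.2 ± 0.346, Ccl2 at 28.1 ± 1.69 and Cxcl12 at 20.97 ± 1.36 CPM per kilobase (SD, n = 2). In OECtrl it was Ccl7 at 43.3 ± 1.66, Ccl2 at 40.9 ± 1.9, Ccl6 at 23.3 ± 2.3 and Cxcl12 at 17.1 ± 0.21 CPM per kilobase. In both groups the libraries of Ccl7 and Ccl2 overlapped on this scale. The next highest member was Cx3cl1 at 6.65 CPM per kilobase in OENr4a3 and Ccl17 at 12.6 CPM per kilobase in OECtrl.

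Lists of genes that act around the chemokines were counted in the same way, against 12.0% higher and 11.0% lower over all genes tested. The trend of fold change with exonic length was left in for these counts, and its part in them was not tested. Of 29 genes of chemokine receptor signalling, all tested, 4 rose and 5 fell, shares near those over all genes, with a median log2 fold change of -0.08 against -0.01 over all genes. Of those with the smallest p, Grk5, a kinase that desensitizes G protein-coupled receptors, rose to 162.7 and 170.4 CPM in OENr4a3, against 99.7 and 104.5 CPM in OECtrl (0.71, adjusted p = 0.00226 in edgeR). Arrb1, which encodes beta-arrestin 1, rose as well (1.16, adjusted p = 0.00539). Gnai1, an inhibitory G protein subunit, fell to 14.4 and 13.6 CPM in OENr4a3, against 25.6 and 27.5 CPM in OECtrl (-0.92, adjusted p = 0.00229).

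Of 26 NF-kappaB pathway genes tested out of 27, 4 rose and none fell (median log2 fold change 0.20), against 12.0% of all genes called higher and 11.0% lower. The share that rose was near that over all genes. Tnfrsf1b, a TNF receptor (0.70, adjusted p = 0.00649 in edgeR), Tnfaip3, the NF-kappaB inhibitor A20 (0.82, adjusted p = 0.0113), and the lipopolysaccharide receptor gene Tlr4 (0.49, adjusted p = 0.0173) had the smallest p. Of 16 genes for interferons, their receptors and interferon signalling, 14 were tested. Of these 14, 6 rose and none fell (median 0.36), against 12.0% higher and 11.0% lower over all genes. The 2 untested genes, the interferon genes Ifnb1 and Ifng, had 0 reads in every library. Stat2 rose to 110.5 and 111.8 CPM in OENr4a3, against 56.5 and 50.6 CPM in OECtrl (1.05, adjusted p = 0.000379), and Irf7 (1.21, adjusted p = 0.00194) rose too. Among 8 tested genes out of 10 that cleave or shed chemokines, the gelatinase gene Mmp2 rose (0.35, adjusted p = 0.028) and the urokinase gene Plau fell (-0.49, adjusted p = 0.0177). Of 10 relatives outside the symbol pattern, 6 were tested and Cmtm7 fell (-0.46, adjusted p = 0.0274).

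**Figure D5:**
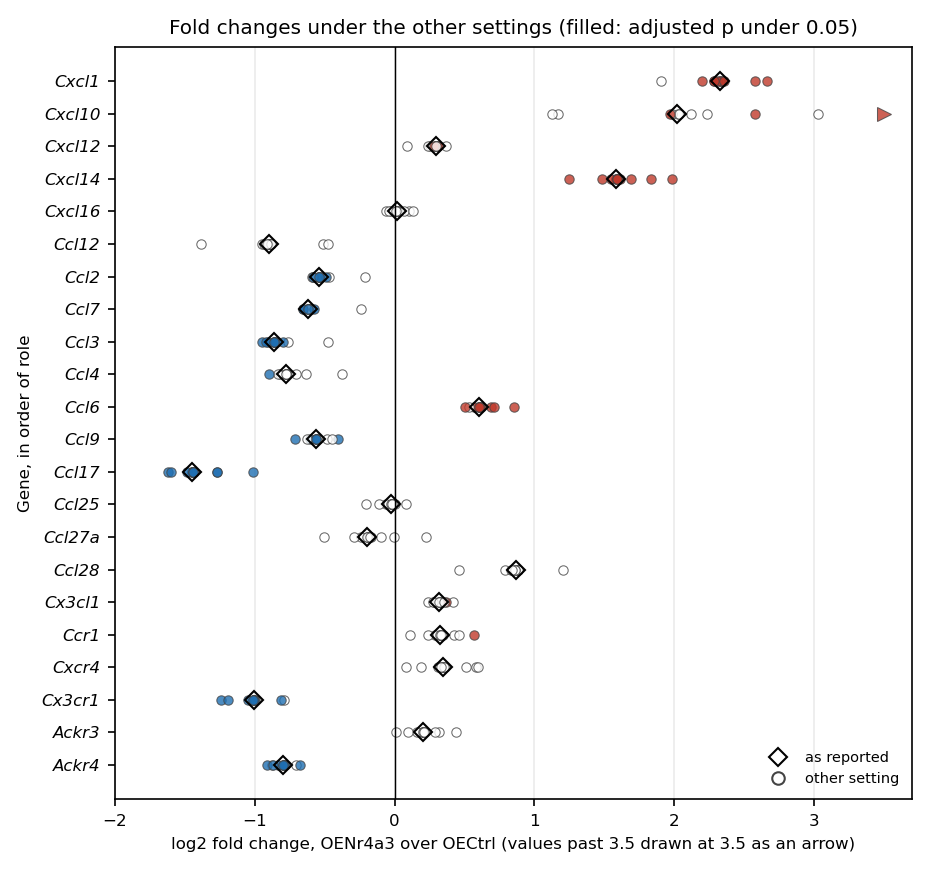
The log2 fold change of 22 of the 23 tested members as reported (diamonds) and under the other settings (circles, filled where the adjusted p was under 0.05), with 1 value of 7.61 for Cxcl10 drawn at the edge as an arrow. Filled circles stay on the side of the reported value for every member shown, and those of Cxcl14 and Ccl17 are filled in all 12 settings.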

How the data were processed

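RNA of 4 libraries of mouse cardiac fibroblasts was sequenced after ribosomal RNA depletion with a stranded kit, per the labels' protocols. The authors deposited whole-number counts per Ensembl gene, an exonic length per gene and 4 FPKM columns, per the file headers; FPKM were not used, and 1 FPKM column without a replicate number was not mapped. Trimmomatic 0.36, Subread 1.5.1, featureCounts, SAMtools and mm10 are named in the submitters' processing notes, and no source used here gives their roles, the annotation or the strandedness chosen for counting. Deposited coordinates equalled those of GENCODE M21 for 4 of 59 members, so GRCm38 positions were taken from GENCODE M21 by Ensembl identifier. Promoter sequences are from RefSeq.

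Counts were filtered with filterByExpr (edgeR 4.0.16, R 4.3.3), scaled by TMM (factors 0.9857 and 0.9842 in OENr4a3, 1.014 and 1.017 in OECtrl) and compared by the two-sided quasi-likelihood F-test over all 15029 genes, with Benjamini-Hochberg adjustment and a threshold of 0.05. Levels are CPM (counts scaled by library size and TMM factor). The SE of a fold change was taken as its size divided by the root of the F statistic. Counting intervals are exact binomial (Clopper-Pearson, 95%) and hold for counting error alone, as does the 3-read floor. Replicates differed beyond sampling noise (chi-square over degrees of freedom 2.55 in OENr4a3 and 15.5 in OECtrl), so all 4 libraries were kept. The pipeline was tested on simulated data.

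The genes named are all tested members with their values, the other members by reads, and up to 3 called genes of each pathway list with the smallest p; 1 tested member and 1 list gene are not reported here, though counts include them. As for choice, the members, lists and motifs were chosen with earlier results of these data known. Alternatives were DESeq2 1.42.0, limma-voom (limma 3.58.1), DESeq2 size factors, upper-quartile factors, no filter, at least 1 CPM in 2 libraries, each library left out in turn, a replicate block, and offsets that take out each library's exonic length trend (lowess with a span of 0.3).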

Additional observations from a re-analysis of the deposited data

How the results depend on the processing

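Of 274 values of the 23 tested members over 12 other settings, 248 kept their side of the threshold, 18 lost a call and 8 gained one. Of values with a call in either fit, 0 changed sign. Some values without a call did, such as Cxcl16 (log2 fold change 0.01 as reported and -0.03 with upper-quartile factors). The count of members called higher, 3 as reported, ranged from 2 to 7 when a single library was left out, and that of members called lower, 7 as reported, from 1 to 8. The lowest counts came without OENr4a3 replicate 1, with 2 higher and 1 lower. Without OENr4a3 replicate 2 there were 3 of each. Without OECtrl replicate 1 there were 7 higher and 8 lower, and without OECtrl replicate 2 there were 6 and 7. A group left with 1 library is assumed to vary like the other group. Over all genes, 3457 calls became 1203 to 7133 when a library was left out and 1878 without the filter on low counts. With the length trend removed, 3 members were called higher and 3 lower (Ccl17, Cx3cr1 and Ackr4), against 10.1% and 10.2% of all genes, and the removal itself takes out differences that follow exonic length. With a replicate block, 4 members were higher (Cxcl10 in addition, adjusted p = 0.00966) and 7 lower, and 3851 genes were called. The replicate numbers share no stated source, and deviations of replicate 1 from the group means had r = -0.0776 between groups across 15029 genes, so the samples were not taken as paired. DESeq2, limma-voom and both other scalings gave 3 higher and 7 lower members, as did the filter of 1 CPM, which left Cxcl10 and Ccl28 untested. Over all genes, DESeq2 called 2799 and limma-voom 3556. DESeq2 size factors gave 3500 calls, upper-quartile factors 3522 and the filter of 1 CPM 3552. Depth limits the 21 members with reads below the filter, which had 1 to 26 reads in all.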
